A study of Mus musculus with 8 samples.

Results

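Small nucleolar RNAs (snoRNAs) were followed in mouse adipose precursor cells (APs) after a brief high fat diet. They were taken as every gene of the array whose single annotated symbol begins with Snord, Snora or Scarna and a number, with the brighter probe set kept where a gene had more than 1. This rule gave 54 of the 19938 genes measured, and it uses names alone, not values. They comprise 31 C/D box snoRNAs (Snord), 20 H/ACA snoRNAs (Snora) and 3 small Cajal body RNAs (Scarna). A further 41 snoRNA probe sets carry several symbols and were left out.

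The C57BL/6J mice were 7 to 8 weeks old and ate the high fat diet (HFD) or a standard diet (SD) for 3 days. Each of the 8 arrays held RNA pooled from 3 mice, and there were 2 arrays in each of 4 groups, which were visceral APs (viAPs) on HFD, viAPs on SD, subcutaneous APs (scAPs) on HFD and scAPs on SD. The viAPs came from perigonadal fat and the scAPs from inguinal fat, both purified on beads by removing CD45 and CD31 positive cells and then selecting for SCA-1, and all groups were otherwise untreated. Nothing in the labels says whether the pools of a group came from separate experiments, so p-values measure the spread between pools as they are.

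snoRNAs are short RNAs of the nucleolus that steer chemical modification of other RNAs. C/D box snoRNAs pair with ribosomal RNA and direct 2′-O-methylation by fibrillarin, H/ACA snoRNAs direct conversion of uridine to pseudouridine by dyskerin, and small Cajal body RNAs do the same to the RNAs of the spliceosome. In vertebrates nearly all lie inside introns of a host gene and are trimmed out of the spliced intron, and many hosts make ribosomal proteins or are non-coding RNAs that are named small nucleolar RNA host genes (Snhg). Host genes of this kind often begin their transcript with a run of C and T, which is known for tying translation to nutrient supply.

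By its position in the RefSeq annotation, 53 of the 54 snoRNAs lay within a host gene, and 43 different genes served as hosts. The exception was Snord118 (U8), which acts in processing of the large subunit ribosomal RNA and is made from its own gene. Ribosomal protein genes hosted 13 C/D box and 8 H/ACA snoRNAs, non-coding RNAs hosted 7 and 5, and other protein-coding genes hosted 10 and 7. To show where transcription of the hosts starts, 30 bases around the start site are given for the hosts of 6 of the 7 snoRNAs that rose on HFD, from RefSeq on GRCm38.p6 and read on the gene's strand. The 7th host, Rpl23a, is named only. Capitals mark an unbroken run of at least 6 C or T, the first 15 bases lie before the start and the other 15 begin at it.
Rpl13a, host of Snord33, chr7:45128731-45128760, minus strand: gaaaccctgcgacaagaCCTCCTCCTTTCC
Rpl4, host of Snord16a, chr9:64173372-64173401, plus strand: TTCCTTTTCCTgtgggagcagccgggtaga
Rbmx, host of Snord61, chrX:57393022-57393051, minus strand: cttaatttccatccgggTTCTTCagcctcg
2410006H16Rik, host of Snord49b, chr11:62602862-62602891, plus strand: tcacgcgccgTCTTTCTCTgcggccatcat
Gm36220, host of Snord104, chr11:106500900-106500929, plus strand: cacgtccattccggCCTCTTatcgacgggg
Nop56, host of Snord57, chr2:130274397-130274426, plus strand: aggtgtggtctccgcagtctggttccgcgc

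Such a run stood in 5 of these 6 windows, and Nop56 had none. The run of Rpl4 lies wholly before the annotated start, those of Rpl13a and Rbmx begin after it, and those of 2410006H16Rik and Gm36220 span it. A run counted anywhere in the window therefore need not begin the transcript. Over hosts with a window of this kind, 9 of 16 C/D box hosts (56.2%) and 8 of 16 H/ACA hosts (50%) had one, against 8833 of all 27025 genes (32.7%). The search covered the gene's strand only, and a match says only that these letters are there.

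The arrays had been normalised together and their median intensities lay between 48 and 54. The precursor marker Pdgfra stood at log2 levels of 11.01 to 11.56 on every array, and the 7 macrophage and blood cell markers had medians of 5.52 to 5.75. Of these, Ptprc stood at 5.67 and 5.36 in HFD scAPs, against 4.86 on both SD scAP arrays and 5.17 and 5.43 in SD viAPs. In scAPs Lyz2, Cd14, Csf1r and Cd3e changed by 0.48, 0.37, 0.01 and 0.01, and Adgre1 and Cd68 by −0.13 and −0.38. The 4 probe sets shared by adult haemoglobin genes, looked at after values were seen, stood at 9.46 to 10.47 on the HFD scAP arrays, against 7.79 to 8.32 on the SD scAP arrays, and at 7.11 to 8.08 in HFD viAPs, against 7.41 to 8.08 in SD viAPs. The array labelled SD viAP replicate 4 went against its label: Tbx15, a marker of subcutaneous APs, stood at 9.77 there, against 4.70 on SD viAP replicate 3 and 9.34 to 9.67 on the SD scAP arrays. The main snoRNA counts and medians that rest on SD viAPs are therefore also given without it, as are named genes that then lost their call or no longer passed the test. The 10 endothelial markers had medians of 7.03 and 7.12 on the HFD scAP arrays, against 6.25 and 6.26 on the SD scAP arrays and 5.60 to 6.11 on the viAP arrays, and Pecam1 averaged highest there too. The 11 precursor markers had medians of 9.96 and 10.05 on the SD viAP arrays, against 10.62 or more on all others, and the 6 mature adipocyte markers had medians of 5.60 to 5.94 on HFD arrays and 6.06 to 6.47 on SD arrays. The part of these differences in the snoRNA results was not tested, and fewer cells of a type and less RNA per cell cannot be told apart. RNA was prepared on columns that keep short RNAs poorly and labelled by random priming, so signal from a snoRNA and from the intron around it cannot be told apart either.

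C/D box snoRNAs were the brighter class. Their mean log2 levels over the 8 arrays ran from 3.24 to 11.09 with a median of 7.77, and 18 of 31 were above 7. For H/ACA snoRNAs the range was 3.13 to 9.32, the median 6.33, and 6 of 20 were above 7. The median of all genes was 6.02. Probe sets differ in how strongly they bind, so these are levels of probe sets and do not rank the RNAs. Snord55, Snord82 and Snord57 were the brightest C/D box snoRNAs, and Snora23, Snora52 and Snora44 the brightest H/ACA snoRNAs. Of the small Cajal body RNAs, Scarna17 was at 10.29, Scarna13 at 7.41 and Scarna8 at 4.56.

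HFD against SD was the main question of the study. A gene was called when its change was at least 2-fold with a Benjamini-Hochberg adjusted p under 0.05 in limma, over the 3076 probe sets that passed a filter on level and variability. 22 snoRNAs passed that filter, 17 of them C/D box and 5 H/ACA. In viAPs 6 snoRNAs rose and 0 fell, against a background of 12.5% of tested probe sets called higher and 1.01% called lower. In scAPs 6 rose and 0 fell as well, against 3.22% called higher and 0.163% called lower. All of the called snoRNAs were C/D box, so that 35.3% of the C/D box snoRNAs in the filter were called in each depot, and 0 of the 5 H/ACA snoRNAs. With no minimum fold, 13 C/D box snoRNAs and 1 H/ACA snoRNA (Snora52) were higher in viAPs at the same adjusted p (60.6% of probe sets), which became 7 C/D box snoRNAs and 0 H/ACA snoRNAs without SD viAP replicate 4 (41.9% of probe sets), and 10 C/D box snoRNAs were higher in scAPs (29.1%). A snoRNA that passed the filter through being high in 1 group had to vary, so these shares describe the filtered snoRNAs only. Leaving out SD viAP replicate 4, 4 snoRNAs were called in viAPs, Snord16a, Snord33, Snord49b and Snord61. Over the mean of both depots 5 snoRNAs rose (4.78% of probe sets called higher, 0.488% lower), Snord61, Snord16a, Snord33, Snord42a and Snord49b, and 17 were higher at the adjusted p alone (65.9%). Counts of calls with arrays left out, here and in the closing section, lack the share of all probe sets called. A loss of snoRNA calls there cannot be told from a loss of calls in general. The counts rested on few arrays: without HFD viAP replicate 5 the viAP count was 1 (Snord49b), and without HFD scAP replicate 8 or SD scAP replicate 2, or with only the 4 scAP arrays in the model, the scAP count was 0.

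**Figure D1:**
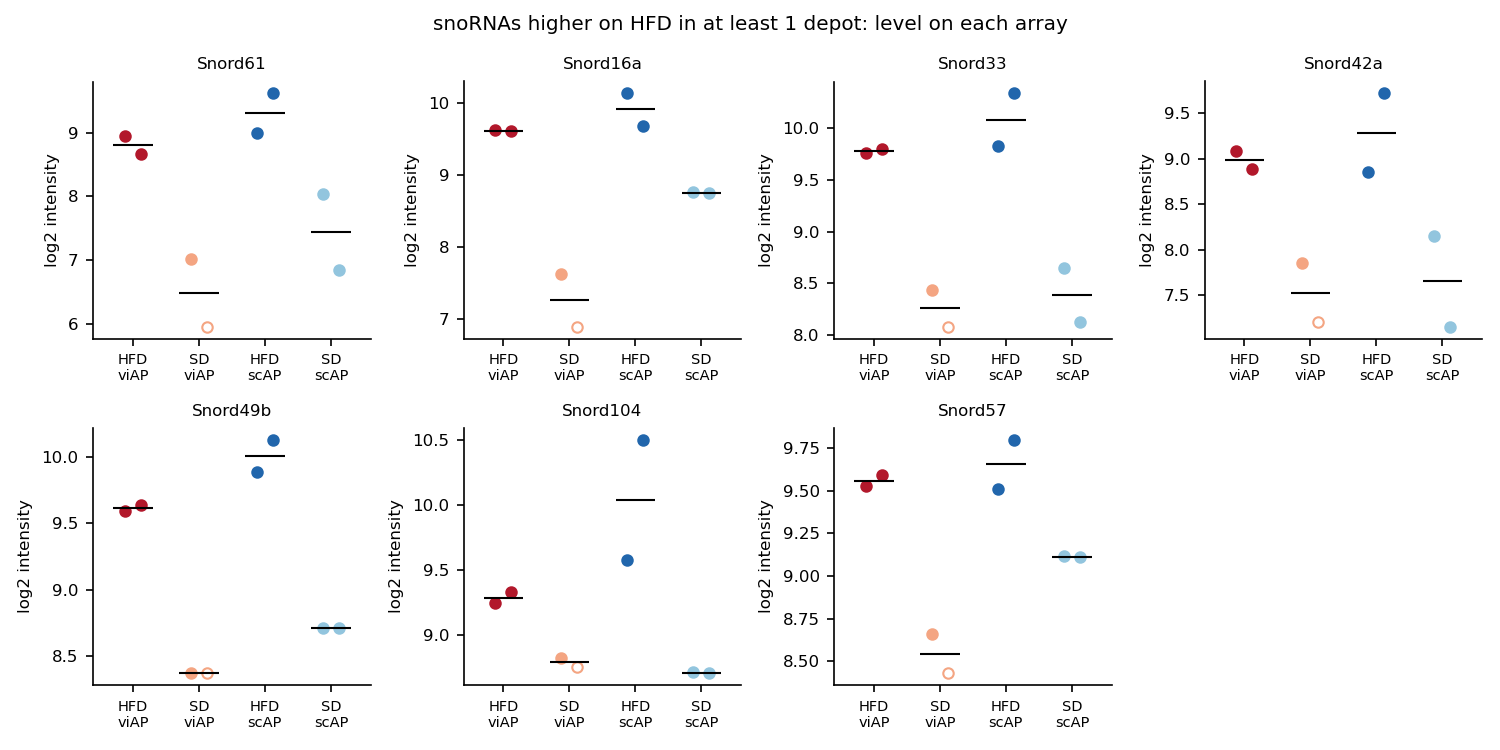
Log2 intensity (vertical axis) of the 7 snoRNAs called higher on HFD in viAPs or scAPs, for each array (points) and as the mean of each group (lines), by group along the horizontal axis. The open point is the array labelled SD viAP replicate 4. In each panel both HFD points of a depot lie above both SD points of that depot.

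Snord61 lies in an intron of Rbmx, which codes for an RNA-binding protein of splicing, and its human counterpart guides methylation of 18S ribosomal RNA. It stood at log2 levels of 8.94 and 8.67 on the HFD viAP arrays, against 7.01 and 5.95 on the SD viAP arrays, and at 9.00 and 9.62 on the HFD scAP arrays, against 8.03 and 6.85 on the SD scAP arrays. The diet groups did not overlap in either depot, but the SD arrays of each depot lay more than 2-fold apart. The change was 2.32 ± 0.48 in viAPs (SE, limma adjusted p = 0.0091) and 1.87 ± 0.48 in scAPs (limma adjusted p = 0.0329). With that depot's replicate 4 left out, the viAP change was 1.79 (limma adjusted p = 0.0474).

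Snord16a is encoded in Rpl4, the gene of a large subunit ribosomal protein, and its human counterpart also acts on 18S ribosomal RNA. Its levels were 9.63 and 9.61 on the HFD viAP arrays and 7.63 and 6.89 on the SD viAP arrays. In scAPs they were 10.14 and 9.69 on HFD and 8.76 and 8.75 on SD. SD viAPs were thus the lowest of the 4 groups, with no overlap with any other. The change of 2.36 ± 0.26 in viAPs (SE, limma adjusted p = 0.00339) was the largest of all snoRNAs, and that in scAPs was 1.16 ± 0.26 (limma adjusted p = 0.0239). The viAP change without SD viAP replicate 4 was 1.99 (limma adjusted p = 0.0147).

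Snord33 and Snord35a both lie in Rpl13a, whose intronic snoRNAs are known from cultured cells as mediators of the toxic response to excess saturated fatty acid. Snord33 stood at 9.76 and 9.80 on the HFD viAP arrays, against 8.44 and 8.08 on the SD viAP arrays, and at 9.83 and 10.34 on the HFD scAP arrays, against 8.65 and 8.13 on the SD scAP arrays. All 4 HFD arrays were above all 4 SD arrays, by 1.52 ± 0.25 in viAPs (SE, limma adjusted p = 0.00546) and 1.70 ± 0.25 in scAPs (limma adjusted p = 0.0142). Snord35a, chosen here as its neighbour after its values were seen, had changes of 1.00 (limma adjusted p = 0.0122) and 0.71 (limma adjusted p = 0.0587), the first just short of 2-fold before rounding and with adjusted p = 0.0514 in limma without SD viAP replicate 4. No probe set with Rpl13a as its 1 symbol was measured.

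Snord42a, encoded in Rpl23a, stood at 9.08 and 8.89 in HFD viAPs, against 7.85 and 7.20 in SD viAPs. In scAPs its levels were 8.85 and 9.72 on HFD and 8.15 and 7.15 on SD. The diet groups were apart in both depots, with changes of 1.46 ± 0.42 (SE, limma adjusted p = 0.0232) and 1.63 ± 0.42 (limma adjusted p = 0.0332), but without SD viAP replicate 4 the viAP change was 1.13 with a limma adjusted p of 0.127. Its near copy in the same host, Snord42b, had changes of 0.72 (limma adjusted p = 0.11 without SD viAP replicate 4) and 0.31, and probes may not fully separate such copies.

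Snord49b lies in the non-coding RNA 2410006H16Rik and varied least between arrays of a group among the 7 called snoRNAs. Its levels were 9.59 and 9.64 in HFD viAPs and 8.37 on both SD viAP arrays, then 9.89 and 10.13 in HFD scAPs and 8.71 on both SD scAP arrays. The changes were 1.25 ± 0.12 in viAPs (SE, limma adjusted p = 0.00324) and 1.30 ± 0.12 in scAPs (limma adjusted p = 0.0108). In viAPs it kept its call with each of the 8 arrays left out in turn, but fell below 2-fold (0.91) after a second quantile normalization. In scAPs it did not pass without HFD scAP replicate 7 (limma adjusted p = 0.0763), HFD scAP replicate 8 (0.0516) or SD scAP replicate 2 (0.0512), with only the 4 scAP arrays (0.0712) or with no filter (0.0668). Snord49a, from the same host, changed by 0.64 (limma adjusted p = 0.153 without SD viAP replicate 4) and 0.71.

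The other called snoRNAs were called in 1 depot each. Snord57 is hosted by Nop56, whose protein is a core part of every C/D box particle. It stood at 9.53 and 9.59 in HFD viAPs and 8.66 and 8.43 in SD viAPs, a change of 1.01 ± 0.15 (SE, limma adjusted p = 0.00448), and at 9.51 and 9.80 in HFD scAPs and 9.12 and 9.11 in SD scAPs, a change of 0.54 (limma adjusted p = 0.0377). Its viAP change without SD viAP replicate 4 was 0.90, below 2-fold. Snord104, in the non-coding RNA Gm36220, stood at 9.58 and 10.50 in HFD scAPs and 8.72 and 8.71 in SD scAPs, a change of 1.32 ± 0.27 (SE, limma adjusted p = 0.0225). In viAPs it stood at 9.25 and 9.33 on HFD and 8.83 and 8.76 on SD, a change of 0.49 (limma adjusted p = 0.147). Neither snoRNA was shown to differ between the depots: the limma test of the difference gave adjusted p = 0.4 for Snord57 and 0.418 for Snord104.

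Over all 54 snoRNAs the median change was 0.39 in viAPs and 0.40 in scAPs, beside −0.06 and 0.00 over all genes. The median was 0.72 for C/D box and 0.10 for H/ACA snoRNAs in viAPs, and 0.58 and 0.35 in scAPs. The difference between classes has no test here, since genes of a class are not replicates. Brighter genes were higher on HFD in general, so the classes were also compared above a mean log2 level of 7. There the 18 C/D box snoRNAs had medians of 0.86 and 0.79, the 6 H/ACA snoRNAs −0.24 and 0.59, and the 6185 genes 0.32 and 0.19, for viAPs and scAPs in that order. Without SD viAP replicate 4 the viAP median of C/D box snoRNAs was 0.49 over all levels and 0.74 above 7, and that of H/ACA snoRNAs 0.10 and −0.06. The H/ACA medians leaned on single arrays. Over all levels they ran from 0.02 (without HFD viAP replicate 5) to 0.15 in viAPs and from 0.16 (without SD scAP replicate 2) to 0.36 in scAPs with 1 array left out, and above 7 the scAP median was 0.09 without HFD scAP replicate 8 and 1.17 without HFD scAP replicate 7.

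Both HFD arrays were above both SD arrays for 23 of 31 C/D box and 9 of 20 H/ACA snoRNAs in viAPs, against 28.3% of all genes, and for 21 and 7 in scAPs, against 21.8%. Both HFD arrays were below both SD arrays for 4 C/D box and 5 H/ACA snoRNAs in viAPs (31.7% of genes), and for 0 snoRNAs in scAPs (18.8%). Above a level of 7, such separation upward held for 15 of 18 C/D box snoRNAs in each depot, against 63.9% of genes in viAPs and 46.3% in scAPs, and separation downward for 3 in viAPs and 0 in scAPs, against 11.2% and 8.99% of genes. In both depots at once it held for 19 of 31 C/D box snoRNAs (61.3%) and 5 of 20 H/ACA snoRNAs (25%), against 15% of all genes, and above a level of 7 for 15 of 18 C/D box snoRNAs (83.3%) and 1 of 6 H/ACA snoRNAs (16.7%), against 38.4%. The 6 H/ACA snoRNAs above 7 separated upward in 2 cases and downward in 3 in viAPs, and upward in 2 and downward in 0 in scAPs. Without SD viAP replicate 4, where separation from the 1 remaining array is easier, the viAP counts were 24 C/D box and 11 H/ACA snoRNAs upward (36% of genes) and 4 and 5 downward (43.3%), and the shares in both depots were 61.3% of C/D box snoRNAs, 30% of H/ACA snoRNAs and 16.7% of genes. Above a level of 7 the shares in both depots were then 83.3%, 33.3% and 41.6%.

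**Figure D2:**
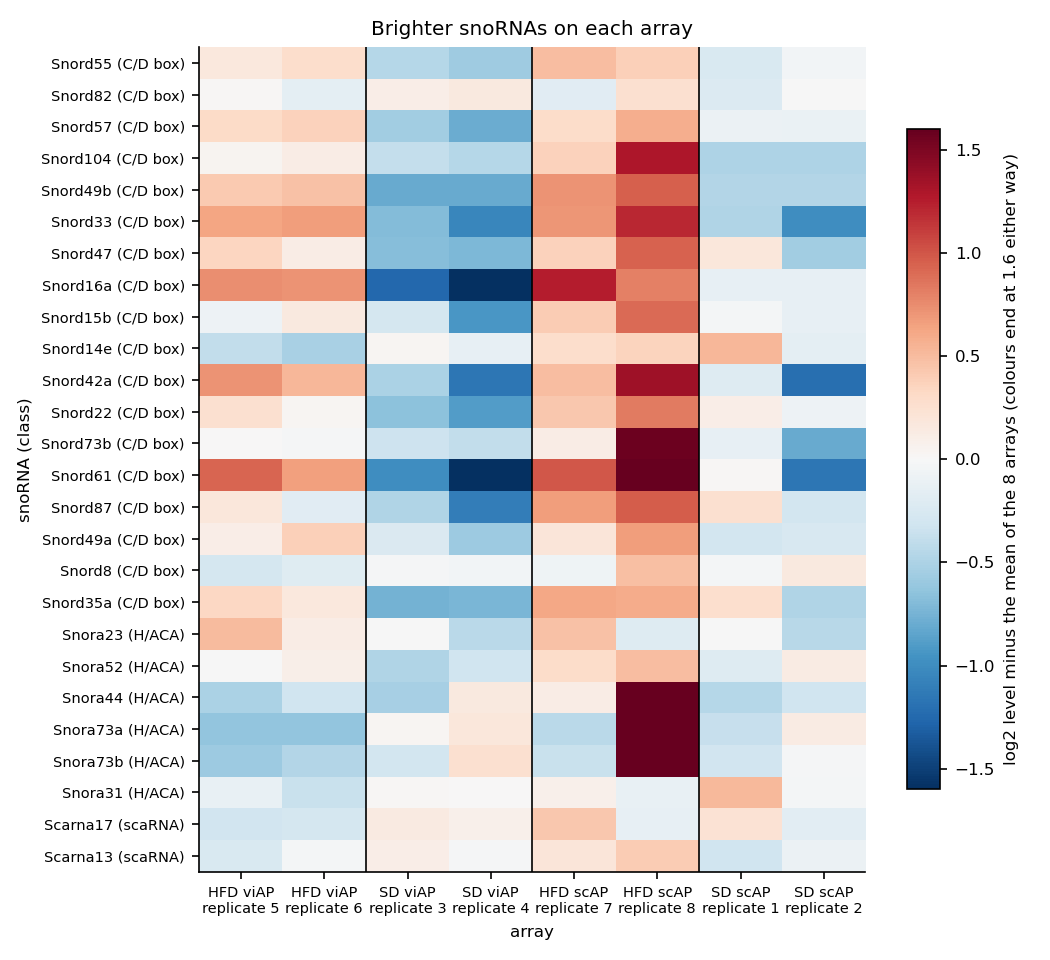
Log2 level of the 26 snoRNAs with a mean above 7 (rows, with their class) on each of the 8 arrays (columns), as the difference from each snoRNA's mean over the 8 arrays (colour). Most C/D box rows are red in the HFD columns and blue in the SD columns, SD viAP replicate 4 and SD scAP replicate 2 hold several of the deepest blues, and Snora44, Snora73a and Snora73b are dark red on HFD scAP replicate 8 alone.

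C/D box snoRNAs were then grouped by the kind of host. All 13 in ribosomal protein genes had changes above 0 in both depots, with medians of 0.74 and 0.74, and were higher without overlap on HFD in 13 cases in viAPs (28.3% of all genes) and 10 in scAPs (21.8%), and in 7 of 7 in each depot above a level of 7 (63.9% and 46.3%). The 7 in non-coding RNAs also all had changes above 0, with medians of 0.80 in viAPs and 0.84 in scAPs. Among the 10 in other protein-coding genes the medians were 0.21 and 0.21, and the values spread widely, with Snord61 and Snord57 as the high ones. The viAP medians without SD viAP replicate 4 were 0.62, 0.49 and 0.11 for the 3 kinds of host.

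Some bright C/D box snoRNAs were not called. Snord82, in an intron of nucleolin (Ncl), stood at 10.76 and 10.58 in HFD viAPs, against 10.85 and 10.90 in SD viAPs, and at 10.56 and 11.00 in HFD scAPs, against 10.52 and 10.73 in SD scAPs. The HFD viAP levels lay just below the SD ones and the scAP groups overlapped, with changes of −0.20 (limma adjusted p = 0.492) and 0.15 (limma adjusted p = 0.743). Snord14e in Hspa8 and Snord8 in Chd8, named after their values were seen, had viAP changes of −0.41 and −0.21, also with no overlap, and neither passed the test (limma adjusted p = 0.136 and 0.517). Snord55, the brightest snoRNA, rose by less than 2-fold: its levels were 11.26 and 11.37 in HFD viAPs and 10.63 and 10.52 in SD viAPs, a change of 0.74 ± 0.13 (SE, limma adjusted p = 0.0062), and 11.58 and 11.47 in HFD scAPs and 10.84 and 11.04 in SD scAPs, a change of 0.58 (limma adjusted p = 0.0244). Snord118, with no host, was dim and lower without overlap in HFD viAPs (−0.74, limma adjusted p = 0.0976).

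**Figure D3:**
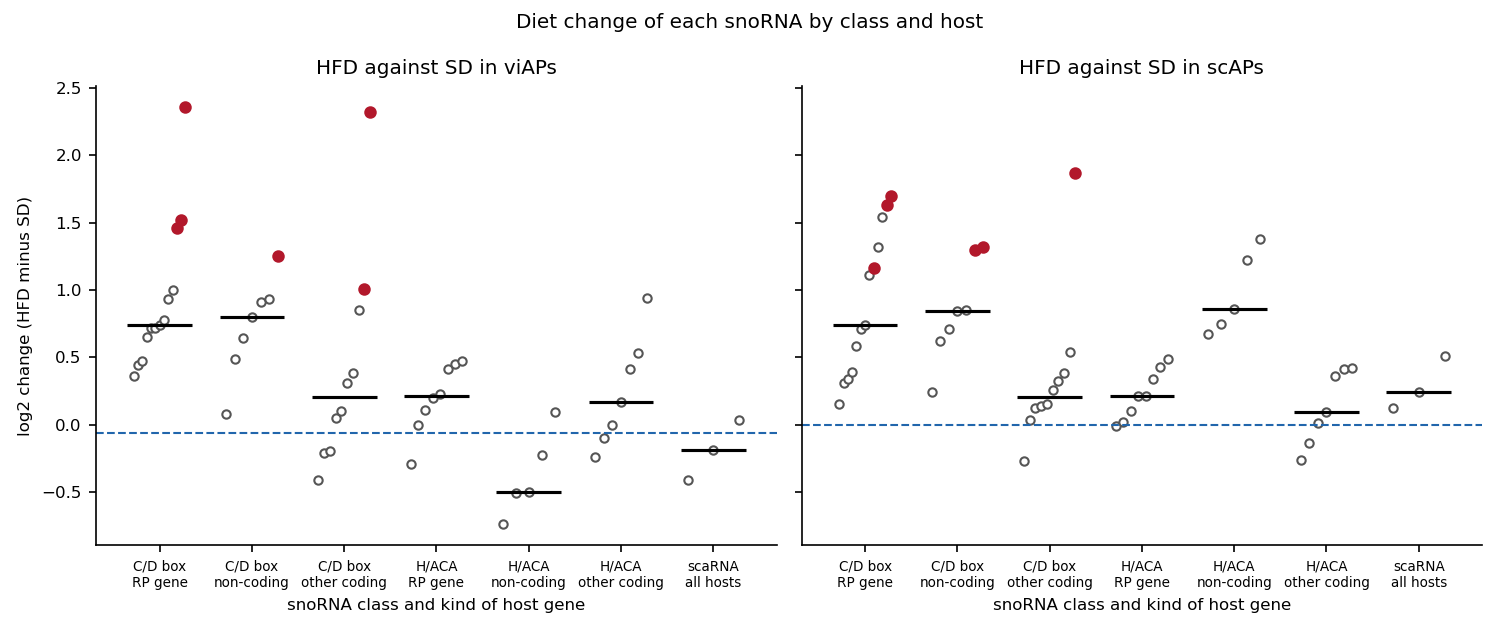
Log2 change, HFD minus SD (vertical axis), of each snoRNA in viAPs (left panel) and scAPs (right panel), by class and kind of host along the horizontal axis. Filled points were called, solid lines are medians of each set and the dashed line is the median of all genes; Snord118, which has no host, is left out. Sets of C/D box snoRNAs in ribosomal protein and non-coding hosts lie wholly above the dashed line in both depots, and the 5 H/ACA snoRNAs of non-coding hosts lie mostly below it in viAPs and above it in scAPs.

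Of the H/ACA snoRNAs, Snora23 lies in Ipo7, which codes for an importin that carries ribosomal proteins into the nucleus. It stood at 9.82 and 9.43 in HFD viAPs, against 9.31 and 8.89 in SD viAPs, and at 9.79 and 9.11 in HFD scAPs, against 9.31 and 8.87 in SD scAPs. The diet groups were apart in viAPs and overlapped in scAPs, and neither change passed the test (0.53, limma adjusted p = 0.14, and 0.36, limma adjusted p = 0.363). Snora52, in Rplp2, stood at 7.79 and 7.89 in HFD viAPs, against 7.31 and 7.47 in SD viAPs, a rise of 0.45 ± 0.16 (SE, limma adjusted p = 0.0407) that did not pass without SD viAP replicate 4 (0.53, limma adjusted p = 0.0714). In scAPs its change was 0.43 (limma adjusted p = 0.0791).

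The 5 H/ACA snoRNAs of non-coding hosts had opposite median changes in the 2 depots. They are Snora16a and Snora44 in Snhg12, Snora73a and Snora73b in Snhg3, and Snora74a in Snhg4; Snora73 (U17) takes part in cutting of the precursor of 18S ribosomal RNA. Their median change was −0.50 in viAPs (−0.24 without SD viAP replicate 4) and 0.86 in scAPs, and on HFD all 5 were lower in viAPs than in scAPs with no overlap (20% of all genes), by a median of 1.26. Without HFD scAP replicate 8 the scAP median was 0.30, and HFD viAPs lay below HFD scAPs by a median of 0.33. Snora44 stood at 7.18 and 7.37 in HFD viAPs, against 7.16 and 7.84 in SD viAPs, and at 7.81 and 9.53 in HFD scAPs, against 7.23 and 7.37 in SD scAPs. Snora73a stood at 6.97 on both HFD viAP arrays, against 7.63 and 7.78 on the SD viAP arrays, and at 7.17 and 9.29 on the HFD scAP arrays, against 7.23 and 7.73 on the SD scAP arrays. Snora73b followed its near copy, with 6.75 and 6.86 in HFD viAPs and 7.04 and 7.59 in SD viAPs, then 6.97 and 9.10 in HFD scAPs and 7.03 and 7.31 in SD scAPs. For these 3 genes the high scAP level came from HFD scAP replicate 8 alone or mainly, and 0 of them passed the test in any comparison. The scAP changes were 1.38 ± 0.52 for Snora44 (SE, limma adjusted p = 0.0857), 0.75 for Snora73a (limma adjusted p = 0.364) and 0.86 for Snora73b (limma adjusted p = 0.307).

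That array stood out among the snoRNAs more widely. HFD scAP replicate 8 was at least 2-fold above HFD scAP replicate 7 for 4 of 54 snoRNAs (7.41%), Snora73b, Snora73a, Snora44 and the C/D box snoRNA Snord73b, against 0.105% of all genes. The median difference between these arrays was 0.29 over C/D box snoRNAs, 0.02 over H/ACA snoRNAs and −0.01 over all genes. Snora16a, chosen after its values were seen, was high on both HFD scAP arrays, at 7.11 and 7.91, against 6.58 and 6.00 on the SD scAP arrays and 6.15 and 6.07 on the HFD viAP arrays.

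**Figure D4:**
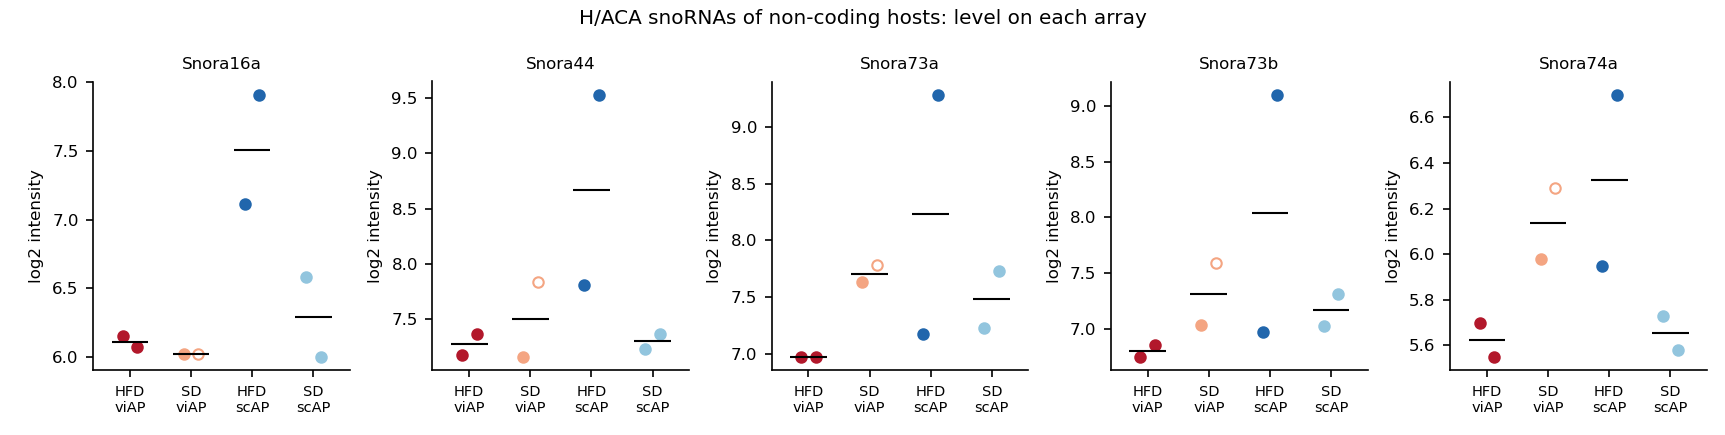
Log2 intensity (vertical axis) of the 5 H/ACA snoRNAs hosted by Snhg12, Snhg3 and Snhg4, for each array (points) and as group means (lines), by group along the horizontal axis. The open point is the array labelled SD viAP replicate 4. The highest point of every panel is HFD scAP replicate 8, and for Snora73a and Snora73b HFD scAP replicate 7 lies below both SD scAP points.

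Of the small Cajal body RNAs, Scarna17 stood at 9.99 and 10.01 in HFD viAPs, against 10.44 and 10.38 in SD viAPs, and Scarna13, in Snhg10, at 7.17 and 7.38, against 7.52 and 7.40. Both were thus lower on HFD in viAPs without overlap, and neither passed the test (−0.41, limma adjusted p = 0.272, and −0.19, limma adjusted p = 0.454). In scAPs Scarna17 overlapped between diets with a change of 0.12, while Scarna13 stood at 7.61 and 7.82 on HFD and 7.09 and 7.32 on SD, a change of 0.51 (limma adjusted p = 0.194). Scarna8, in Haus6, was dim and changed by 0.03 and 0.24.

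Host transcripts were set beside their snoRNAs where a probe set carried the host's symbol alone, for 25 hosts and 29 snoRNAs. The brightest such probe set stood for each host. Whether it lies at the gene that holds the snoRNA was not checked, which also limits the medians and counts over pairs. The probe set numbers of Rpl4, Rbmx and Nop56 were close to those of their snoRNAs. Those of Rpl23a, Rps3a1, Rpl10, Rpl23, Rpl27a, Rps12, Rpsa and Tpt1 were far from them. Values given for Rpl23a may therefore not come from the gene that holds Snord42a, and the same holds for the others. The called snoRNAs with a measured host had larger changes than that host, while Snord33, Snord49b and Snord104 had no measured host. The called snoRNAs were picked for a large change in these data and the hosts were not, so this direction was favoured in advance. Snord16a changed by 2.36 in viAPs and its host Rpl4 by 0.28 (limma adjusted p = 0.206), Snord61 by 2.32 and Rbmx by 0.44 (limma adjusted p = 0.164), Snord42a by 1.46 and Rpl23a by −0.05 (limma adjusted p = 0.834), and Snord57 by 1.01 and Nop56 by 0.19 (limma adjusted p = 0.517). In scAPs the values were 1.16 and 0.31 for Snord16a and Rpl4, 1.87 and −0.10 for Snord61 and Rbmx, and 1.63 and −0.19 for Snord42a and Rpl23a. The snoRNA and its host were measured by different probe sets, so the size of the gap between them has no test here.

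Other pairs ran close together or the other way. Snord47 and its non-coding host Gas5, a transcript known to build up in growth-arrested cells, changed by 0.93 (limma adjusted p = 0.028) and 0.70 (limma adjusted p = 0.0062) in viAPs, and of these Gas5 still passed without SD viAP replicate 4 (limma adjusted p = 0.0211) and Snord47 did not (0.105). Snord82 had −0.20 where its host Ncl had 0.69, and Snora23 had 0.53 where Ipo7 rose by 1.04 (limma adjusted p = 0.0055). In scAPs Rps3 was the one host called, with a change of 1.07 (limma adjusted p = 0.0142), and its snoRNAs Snord15a and Snord15b had 1.54 and 0.74. Snord15b did not pass the test (limma adjusted p = 0.0685). Snord15a lay outside the filter and could not be called here, and its limma adjusted p of 0.0825 is over all probe sets with 1 symbol. The paper lists Snord15a among the genes raised in scAPs. Over 15 C/D box snoRNAs with a measured host the viAP median was 0.65, beside 0.43 over their 12 hosts, and 10 of the 15 changed by more than their host. Over 13 H/ACA snoRNAs the medians were 0.17 and 0.21, and 6 of 13 changed by more than their host. Without SD viAP replicate 4 the C/D box medians were 0.33 for snoRNAs and 0.39 for hosts, with 7 of 15 snoRNAs above their host, and the H/ACA medians were 0.20 and 0.26, with 4 of 13 above.

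**Figure D5:**
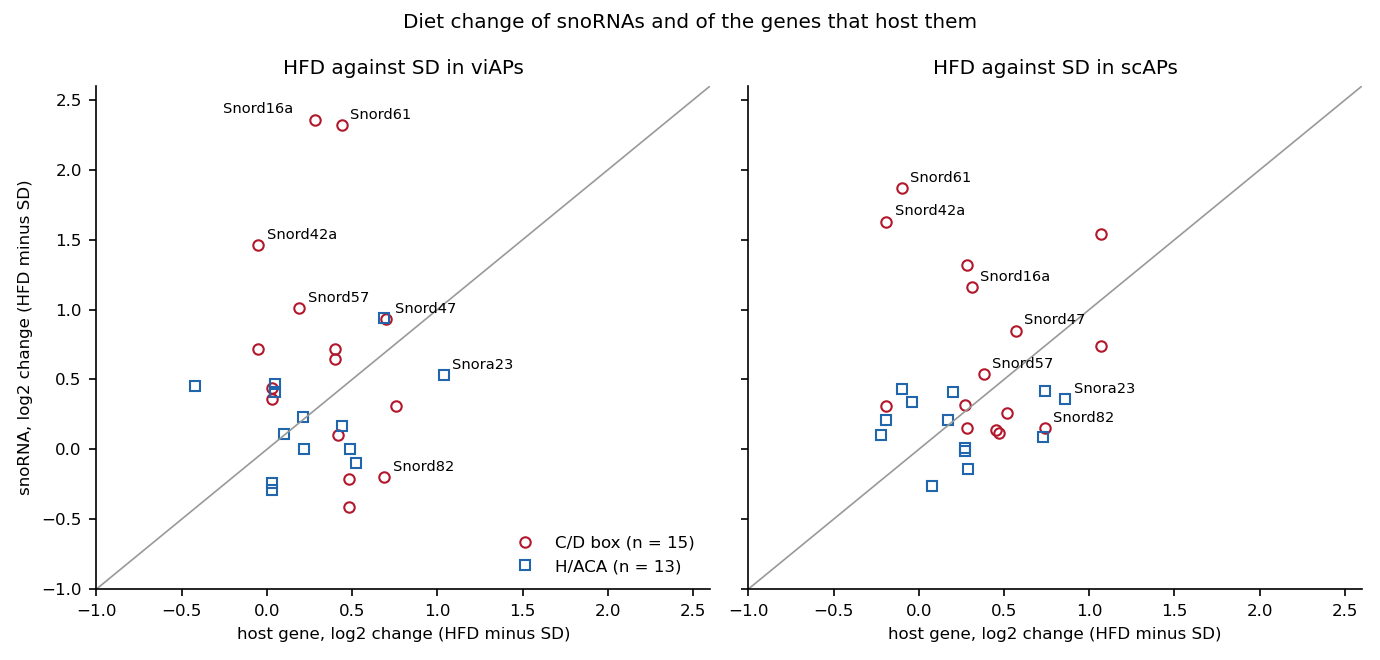
Log2 change, HFD minus SD, of each snoRNA (vertical axis) against that of its host gene (horizontal axis) in viAPs (left panel) and scAPs (right panel), with circles for 15 C/D box and squares for 13 H/ACA snoRNAs. On the grey line both changes are equal. Snord16a, Snord61 and Snord42a lie far above it and Snord82 and Snora23 below it.

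Measured changes of snoRNAs that share a host were not always alike. The 10 hosts with 2 measured snoRNAs included Ncl, where the C/D box snoRNA Snord82 changed by −0.20 in viAPs and the H/ACA snoRNA Snora75 by 0.94 (limma adjusted p = 0.182). In Rps3a1, Snord73b changed by 1.32 in scAPs (limma adjusted p = 0.0651) and Snord73a by 0.15. Snord73b stood at 8.16 and 9.61 on the HFD scAP arrays, against 7.91 and 7.23 on the SD scAP arrays, so its change came mainly from HFD scAP replicate 8. None of these changes passed the test and the differences within pairs have no test, so unlike responses within a host were not shown. The pairs were picked after their values were seen.

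Between depots, 0 snoRNAs were called on either diet, where 1.3% of probe sets were called higher and 0.683% lower in HFD viAPs and 0 between the SD groups. HFD viAPs were below HFD scAPs without overlap for 34 of 54 snoRNAs and above for 0, against 20% and 20.3% of genes, and the median difference was −0.31, beside −0.01 over all genes. The direction was shared by the classes, with 20 of 31 C/D box, 11 of 20 H/ACA and 3 of 3 small Cajal body RNAs lower in HFD viAPs. Endothelial markers and haemoglobin probe sets were also highest in HFD scAPs, as given above. On SD, viAPs were below scAPs without overlap for 21 snoRNAs and above for 5, against 15.6% and 16.9% of genes, with a median of −0.23. Above a level of 7, 20 of 26 snoRNAs were lower in HFD viAPs (23.3% of genes) and 0 higher (32.7%), and 10 were lower in SD viAPs (27.3%) and 3 higher (14%). Without SD viAP replicate 4, SD viAPs were below SD scAPs for 25 of 54 snoRNAs and above for 8 (28.2% and 32% of genes) with a median of −0.17, and above a level of 7 for 11 and 4 of 26 (40.6% and 27.9%), and Snord16a was called in SD viAPs, where it fell by 1.13 (limma adjusted p = 0.0338). In limma without adjustment, 15 snoRNAs had a p under 0.05 between the HFD groups (9.11% of genes), 14 between the SD groups (9.65%) and 7 for the difference between the viAP and scAP diet changes (6%). For that difference 0 probe sets were called, the lowest adjusted p being 0.267. For Snord16a it was 1.20 ± 0.36 (SE, limma adjusted p = 0.315), the viAP change being the larger.

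The proteins that bind snoRNAs were examined as lists. Of the 5 measured core proteins of C/D box particles 1 rose: Nop58 stood at 10.53 and 10.47 in HFD viAPs and 9.46 and 9.22 in SD viAPs, then 10.53 and 10.25 in HFD scAPs and 8.98 and 9.49 in SD scAPs, and its change was 1.16 in both depots (limma adjusted p = 0.0062 and 0.0176). The methyltransferase fibrillarin (Fbl) had 0.44 and 0.32, Nop56 0.19 and 0.38, Snu13 0.17 and 0.46 and Rrp9 −0.03 and 0.17, and none of these passed. Of the 5 core proteins of H/ACA particles 0 were called, with changes of −0.09 to 0.30 in viAPs and −0.32 to 0.43 in scAPs. Of 23 assembly and trafficking factors 0 were called at 2-fold. Naf1, which assembles H/ACA particles, was higher at the adjusted p alone in both depots (0.64, limma adjusted p = 0.0119, and 0.97, limma adjusted p = 0.0142). So were Taf9 and Exosc10, a nuclease of the nuclear exosome, in viAPs (0.88 and 0.51). Among probe sets in the filter, 60.6% in viAPs and 29.1% in scAPs were higher at the adjusted p alone, so such rises were common. The shares called higher were 12.5% and 3.22%. Without SD viAP replicate 4 Nop58 kept its viAP call (1.04, limma adjusted p = 0.0304), and Naf1 (0.0516), Taf9 (0.119) and Exosc10 (0.0678) did not pass in viAPs.

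Of 8 measured non-coding host transcripts, Rian, an imprinted transcript that carries many C/D box snoRNAs not measured singly here, was called in viAPs (1.34, limma adjusted p = 0.0222) and stood at −0.09 in scAPs. Its neighbour in the imprinted region, Meg3, had 0.94 (limma adjusted p = 0.0217) and −0.13. Other small non-coding RNAs, mostly microRNA genes, were dim: the median of the 304 was 4.46 to 4.75 on each array, and 34 had a mean log2 level above 7. Their median change was −0.22 in viAPs and −0.17 in scAPs, beside −0.06 and 0.00 over all genes. Brighter genes were higher on HFD in general, and the part of the low level of these RNAs in that median was not tested. In viAPs 4 were called higher, Mir323, Mir329, Mir485 and Mir679, by 1.10 to 1.85, and Mir199a-1 was called lower, by 1.03 (12.5% and 1.01% of probe sets in the filter). Outside the filter Mir154, Mir376b, Mir382, Mir543, Mir377 and Mir381 also rose at least 2-fold, at a limma adjusted p under 0.05 over all probe sets with 1 symbol. Without SD viAP replicate 4 their changes were 1.31 to 2.06, and they did not pass the test. Without SD viAP replicate 4 Mir323, Mir329 and Mir485 kept their calls, Mir199a-1 fell by 0.88, below 2-fold, and Mir679, Rian and Meg3 did not pass (limma adjusted p = 0.145, 0.0956 and 0.0541). In scAPs 2 rose, the Y RNAs Rny1 (1.43) and Rny3 (1.85), which bind the Ro protein.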

How the data were processed

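Levels came from Affymetrix Mouse Gene 1.0 ST arrays. Per the labels and methods, the authors summarised probes by RMA with quantile normalization (Affymetrix Expression Console 1.1 is named in their processing notes) and deposited linear intensity values as whole numbers, which were used here as log2 values of 35556 probe sets. Genes were named from the platform annotation: 21789 probe sets had 1 symbol, 1621 several and 12146 none. limma 3.58.1 in R 4.3.3 fitted 1 mean per group over all 8 arrays, with variances moderated over all probe sets (4 residual and 2.64 prior degrees of freedom), and the script was tested on simulated data. Benjamini-Hochberg adjustment ran over 3076 probe sets. These had 1 symbol, exceeded a log2 value of 7 in 3 or more arrays, and fell within the most variable 1/3 of all probe sets by mean absolute deviation. The authors' methods describe this filter, though their published scAP list holds Snord15a, which does not pass it. A snoRNA outside it got an adjusted p over all probe sets with 1 symbol. Arrays give no counts, and 2 arrays a group limit the precision. Named were all called snoRNAs, the 3 brightest and the 2 most changed bright ones of each class in each depot, and called genes of the fixed lists. Hosts were found by position in RefSeq and all 54 snoRNAs matched it. The snoRNAs, lists and rules were chosen with earlier results of these data known.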

Additional observations from a re-analysis of the deposited data

Results flagged for a closer look

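In Scarna13 and Snora74a every HFD viAP array lay below every SD viAP array, while every HFD scAP array lay above every SD scAP array. Scarna13, a small Cajal body RNA of Snhg10, changed by −0.19 in viAPs and 0.51 in scAPs, a difference of −0.70 (limma adjusted p = 0.768). Snora74a, an H/ACA snoRNA of Snhg4, stood at 5.70 and 5.55 in HFD viAPs and 5.98 and 6.29 in SD viAPs, and at 5.95 and 6.70 in HFD scAPs and 5.73 and 5.58 in SD scAPs. Its changes were −0.50 and 0.67, a difference of −1.17 (limma adjusted p = 0.768). Neither difference passed the adjusted test, and both genes lay outside the filter on level and variability. Among all genes 31.7% were lower on HFD without overlap in viAPs and 21.8% were higher in scAPs. The share of genes with both was not counted, so this pattern cannot be called unusual. Without SD viAP replicate 4 the viAP changes were −0.24 for Scarna13 and −0.35 for Snora74a.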

How the results depend on the processing

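With 2 arrays a group, the counts of called snoRNAs moved with the settings and with the arrays kept. The viAP count of 6 was 3 after a second quantile normalization (Snord16a, Snord33 and Snord61), 14 with no minimum fold and 1 to 8 with 1 array left out (1, Snord49b, without HFD viAP replicate 5). The scAP count of 6 was 0 with only the 4 scAP arrays in the model, 0 with no filter, 2 with a filter on level alone, 2 after the second quantile normalization (Snord33 and Snord49b in both) and 10 with no minimum fold. It was 0 to 8 with 1 array left out: 0 without HFD scAP replicate 8 or SD scAP replicate 2, 1 without HFD scAP replicate 7 and 2 without HFD viAP replicate 5 or 6. For the mean of both depots the count of 5 was 17 with no minimum fold and 5 to 9 with 1 array left out (9 without HFD scAP replicate 7, Snora44 among them), and between depots on SD the count of 0 was 0 to 1 (Snord16a, without SD viAP replicate 4). In 250 repeats of single called snoRNAs, 189 kept the call, 61 lost it and 0 changed sign. With 1 array left out the sign could not change, because both HFD arrays of each called snoRNA lay above both SD arrays. The 0 is therefore no measure of how stable the directions were. Centring moved the change of the median probe set by 0.14 in viAPs and 0.10 in scAPs, and the second quantile normalization by 0.12 and 0.08. Over all probe sets, viAP calls (384 up, 31 down) became 695 up and 23 down after centring, with 9 snoRNAs, and 135 up and 57 down after the second quantile normalization; scAP calls (99 up, 5 down) became 161 up and 5 down, with 7 snoRNAs, and 35 up and 7 down. Class medians, alternatives chosen after seeing the data, stayed above 0 on HFD under both scalings for C/D box (0.58 to 0.86 in viAPs, 0.47 to 0.68 in scAPs) and H/ACA snoRNAs (0.10 to 0.24 and 0.28 to 0.45). With 1 array left out the medians were 0.49 to 0.83 and 0.47 to 0.70 for C/D box and 0.02 to 0.15 and 0.16 to 0.36 for H/ACA snoRNAs. No paired analysis was possible because the array numbers run from 1 to 8 and groups share none.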
